A study of Homo sapiens with 16 samples.

Results

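Wild-type HMC3 cells were profiled at baseline by RNA sequencing after ribosomal RNA depletion, and 11304 of the 60669 genes in the deposited expression table (18.6%) reached at least 1 TPM in all 3 wild-type libraries. TPM gives each gene's share of a library's transcripts, corrected for gene length, and adds up to 1 fixed total per library, so levels can be set side by side between genes. These 11304 genes are called expressed below, and no threshold on a difference between groups was used to choose them. The series holds 16 libraries of HMC3: 5 wild-type and 5 METTL3 KO libraries made with Smart-seq2 from polyadenylated RNA, and 3 wild-type and 3 METTL3 KO libraries made with a directional kit from 100 ng of total RNA after ribosomal RNA removal. Only the 3 wild-type libraries of the latter kind chose the expressed genes. The poly(A) libraries enter through the authors' mean over both genotypes, named as such wherever it is used, and the genotypes were not compared. The cells carry no stated treatment, they are 1 established line, and nothing says that the replicates came from separate cultures, so the spread given below may be technical.

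HMC3 is a line of human embryonic microglia immortalised with a viral antigen and is labelled as a microglial cell. Microglia are the resident macrophages of the brain: they depend on the receptor CSF1R and the transcription factors SPI1 and IRF8, and carry receptors such as P2RY12, CX3CR1 and TREM2 with the adaptor TYROBP. Fibroblasts and other mesenchymal cells instead make collagen and fibronectin under transcription factors of the TWIST, TEAD and forkhead families. A library depleted of ribosomal RNA also retains RNAs without a poly(A) tail, among them the replication-dependent histone mRNAs, 7SK and 7SL RNA and the small nuclear and nucleolar RNAs.

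The libraries were shallow. Recovered reads (TPM multiplied by the gene length of GENCODE 29 and divided by what 1 read is worth) came to 407871, 266130 and 487243 in libraries 1, 2 and 3. For a gene of 1 kb, 1 read equalled 7.08, 10.3 and 5.99 TPM, so the threshold of 1 TPM lay below the worth of 1 read for most genes. Of 11547 genes above 0 in all 3 libraries, 243 were left out by the threshold. Among the expressed genes with a known length, 11256 in number, the lowest library held 3 reads or fewer for 3238 and 10 or more for 5175. The median was 8 reads. At the edge of the rule, the lowest library held 1.002 TPM for TTC30A, 1.006 for BTN3A2 and 1.007 for NBPF11, which were included, and 0.999993 for IL1R1, 0.999 for NEDD9 and 0.998 for KICS2, which were not, each being the worth of 1 read. A further 42998 genes were listed at 0 in all 3 libraries. RMRP, an RNA that dividing cells use, is one of them, so a 0 is reported here only as listed. Where a limit is given for such a gene it is the TPM of 3 reads, which covers counting error only.

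Expression was concentrated in few genes. The 10 most abundant genes of each library took 23.5% ± 0.757 of TPM (SD, n = 3), the 100 most abundant 41.0% ± 1.43 and the 1000 most abundant 66.7% ± 1.12. Of the expressed genes, 6727 (59.5%) lay between 10 and 100 TPM in the mean, 3144 (27.8%) between 1 and 10, 1347 (11.9%) between 100 and 1000, and 86 (0.761%) at 1000 or more.

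Nuclear mRNAs, with 65 histone genes recognised by symbol set apart, took 56.3% ± 1.72 of TPM (SD, n = 3) and made up 9964 of the expressed genes. H2AX and a few other histone genes remain in this class. Its members held 92.7% ± 0.199 of the recovered reads. The 2 shares differ in that TPM weights short RNAs more heavily per read, and in that reads could be recovered only for genes with a known length. 7SL RNA, the RNA of the signal recognition particle, took 11.0% ± 1.73 of TPM over 679 genes and pseudogene copies, 187 of them expressed. Its share was 10.6%, 12.9% and 9.58% in libraries 1 to 3, so it was highest in library 2. Copies of 7SL are nearly identical, and reads may have been split among them. Identifiers that GENCODE 29 does not hold took 8.12% ± 0.707 of TPM, most of it from the 1 unnamed entry described below. Small nucleolar and Cajal body RNAs, which guide the modification of other RNAs, took 4.41% ± 0.401 of TPM, with 25 of 989 genes expressed. Histone mRNAs took 4.40% ± 0.0890, with 49 of 65 genes expressed. The mitochondrial genome took between 3.85% and 4.22%, 7SK RNA 3.87% ± 0.211, and long noncoding RNAs 3.58% ± 0.234. Spliceosomal small nuclear RNAs took 2.01% ± 0.540, from 1.61% in library 3 to 2.63% in library 2.

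**Figure D1:**
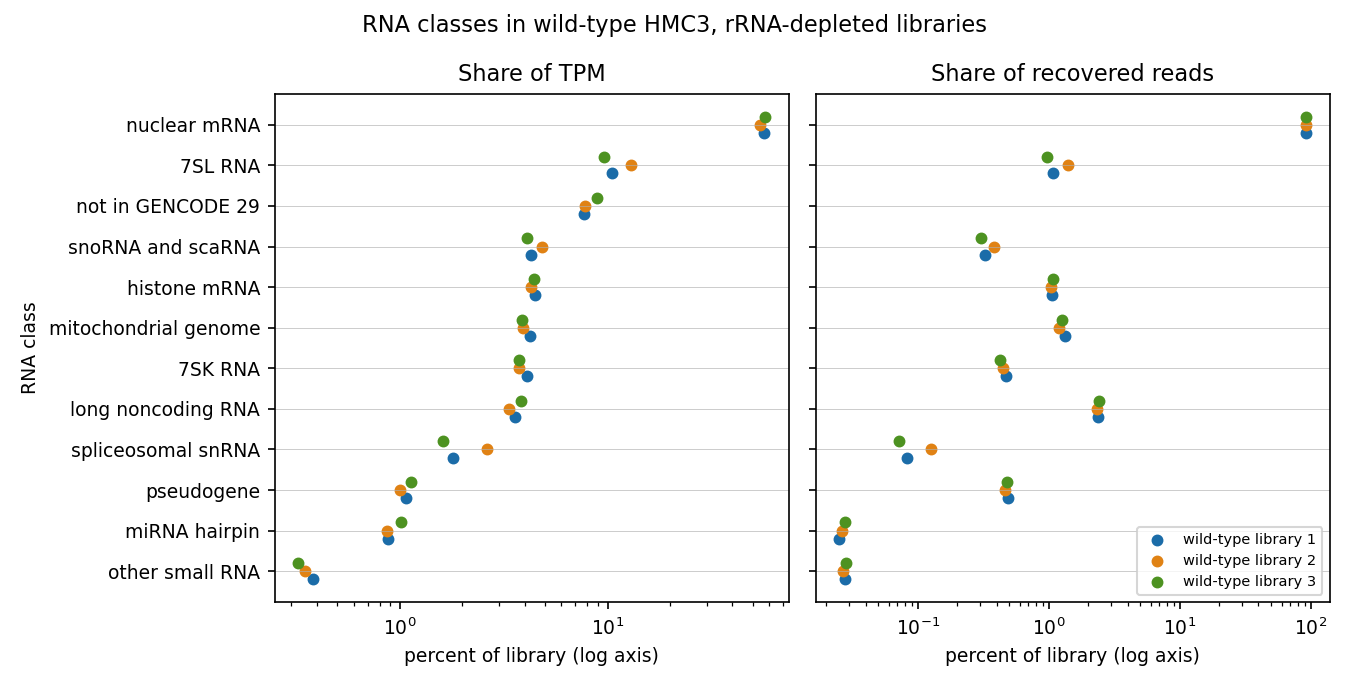
Share of each RNA class in the 3 wild-type libraries, as percent of TPM (left) and percent of recovered reads (right), both on log axes, with 1 point per library. Nuclear mRNA held 56.3% of TPM and 92.7% of reads, and 7SL and spliceosomal RNA were highest in library 2 on both scales.

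The most abundant entry was ENSG00000277048, with 66107.5, 67175 and 77513 TPM. Its identifier is not in GENCODE 29 or in the name tables used here, so it is given without a name. RN7SL1 followed with 37215, 50047 and 30515 TPM, and 7SK, which holds back the elongation factor P-TEFb, with 38215 ± 2157 TPM. Among the histone genes H4C2, which encodes histone H4, stood at 16268, 16586 and 15609 TPM, H1-4, a linker histone, at 6967 ± 94.1 TPM and H4C5 at 4747 ± 826 TPM. H4C2 rests on at least 702 reads and H1-4 on at least 514 in every library. SNORD17 (15290.2 ± 1105 TPM) and SNORA71A (8632 ± 1938 TPM) led the nucleolar RNAs, RNU5E-1 (5575 ± 2088 TPM) the spliceosomal RNAs, and MALAT1 (825 ± 69.7 TPM) the long noncoding RNAs with a name. Hairpins of microRNAs had few reads: MIR503 had 6, 2 and 8 reads in libraries 1 to 3 and MIR619 had 4, 5 and 5, so their TPM carries little information. On the mitochondrial genome the large ribosomal RNA MT-RNR2 stood at 9259 ± 1475 TPM and MT-ND6, a subunit of respiratory complex I encoded on the opposite strand from most mitochondrial mRNAs, at 7319 ± 1419.8 TPM, with MT-ND5 at 2689 ± 309 TPM. Whether the counting used strand is not given in the sources used here, so reads of MT-ND6 cannot be told apart from reads of the opposite strand.

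COL1A1, the alpha 1 chain of type I collagen (ENSG00000108821; GRCh38 chromosome 17, 50183289 to 50201632, minus strand), was the most abundant nuclear mRNA apart from histone mRNAs. It stood at 10399.7, 9612 and 11995 TPM from 14417, 9120 and 19673 reads, so this 1 gene held the most reads of any in the table with a known length. Library 3 was highest and library 2 lowest. Among the 20 highest protein-coding genes were also TMSB10, an actin monomer binding protein, at 5897 ± 818 TPM, ACTG1 at 3885 ± 320 TPM, ACTB at 2861 ± 207 TPM, TPM2, a tropomyosin, at 2228 ± 64.7 TPM, and MYH9, a non-muscle myosin, at 2058 ± 125 TPM. PTMS, a small acidic nuclear protein, stood at 6214 ± 344 TPM, ROMO1, a mitochondrial membrane protein, at 2667 ± 587 TPM and BEX3 at 1976 ± 67.1 TPM. CAVIN1, a coat protein of caveolae, reached 2372 ± 73.6 TPM. Ribosomal protein mRNAs RPS2 (3065 ± 291 TPM) and RPSA (2763 ± 152 TPM) belonged to the same 20, as did the glycolytic enzyme ENO1 (2421 ± 26.9 TPM), CALR, an endoplasmic reticulum chaperone (1956 ± 27.5 TPM), and the interferon-inducible IFI6 (1841 ± 111 TPM).

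Microglia-enriched genes were mostly absent from the expressed set. Of 30 such genes 3 were expressed, against 50.9% of all 19686 protein-coding genes, and 1 had more than 3 reads in every library, against 38.7%. The list's median was 0 TPM, beside 3.57 TPM over all protein-coding genes. Among the expressed members, MERTK, a receptor for the uptake of dying cells, had 3, 1 and 2 reads, and PROS1, a ligand of that receptor family, had 1, 1 and 2. The defining genes TMEM119, P2RY12, CX3CR1, SALL1, TYROBP, AIF1 and the complement genes C1QA, C1QB and C1QC were among 19 members listed at 0 in all 3 libraries. Of all 19686 protein-coding genes, 6730 were so listed. For CX3CR1 3 reads would equal 5.81, 8.49 and 4.91 TPM, and for P2RY12 11.4, 16.7 and 9.66 TPM, so a listed 0 does not exclude levels below these. CSF1R had 1 read in library 3 and TREM2 1 read in library 1. Without library 2, the shallowest, 5 members reached the threshold.

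Genes of macrophages and monocytes were likewise missing: 0 of 28 were expressed and 25 were listed at 0, among them CD68, ITGAM, CD163, MRC1, LYZ and FCGR3A. Of all 19686 protein-coding genes, 50.9% were expressed and 6730 were listed at 0. The summed level of the 28 genes was 0, 5.49 and 6.17 TPM in libraries 1 to 3, carried by CD14, CSF2RA and CLEC7A. Without library 1 there was 1 expressed member. Of 20 genes shared by white blood cells 2 were expressed, RAC2, a GTPase (25.02 ± 3.67 TPM), and CORO1A, an actin regulator, which had 2, 3 and 2 reads. PTPRC, which encodes the pan-leukocyte antigen CD45, was listed at 0 where 3 reads equal 2.32, 3.39 and 1.96 TPM. The poly(A) libraries, given by the authors as 1 mean normalized count over wild-type and knockout libraries together, bear on the same genes at another depth. None of the 28 macrophage and monocyte genes and 5 of the 30 microglia-enriched genes reached 10 there, beside 8912 of all 19686 protein-coding genes. Of the microglia-enriched genes, 25 of 30 were neither expressed in total RNA nor at 10 or more in poly(A) RNA. Of all 19686 protein-coding genes, 8871 were in neither. Of the 20 genes shared by white blood cells 3 reached 10 there: RAC2 (57.1), DOCK2 (43.3) and ARHGDIB (41.6), which was listed at 0 in total RNA. TYROBP had a mean normalized count of 0.0324 and PTPRC 0 in the authors' deposited table. The label of a microglial cell is therefore not matched by the defining markers of microglia at this depth, and the cells are called by the line's name.

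Transcription factors of the myeloid lineage were present in part. Of 18, 3 were expressed (16.7%, beside 50.9% of all protein-coding genes): CEBPB, a factor also induced in fibroblasts and other cells, at 145, 143 and 190 TPM (159 ± 26.5), RUNX1 at 18.8 ± 1.17 TPM and MEF2A at 10.2 ± 3.27 TPM. SPI1, IRF8, IKZF1, IRF5 and MEF2C were listed at 0 in all 3, with a limit for SPI1 of 10.3, 15.01 and 8.68 TPM. Without library 2 there were 7 expressed members. Of 15 genes of MHC class II presentation, by which antigen is shown to T cells, HLA-DPB1 alone was expressed (6.67% of the list, at 14.9 ± 2.24 TPM), while CD74 and HLA-DRA were listed at 0. Without library 1 there were 2.

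**Figure D2:**
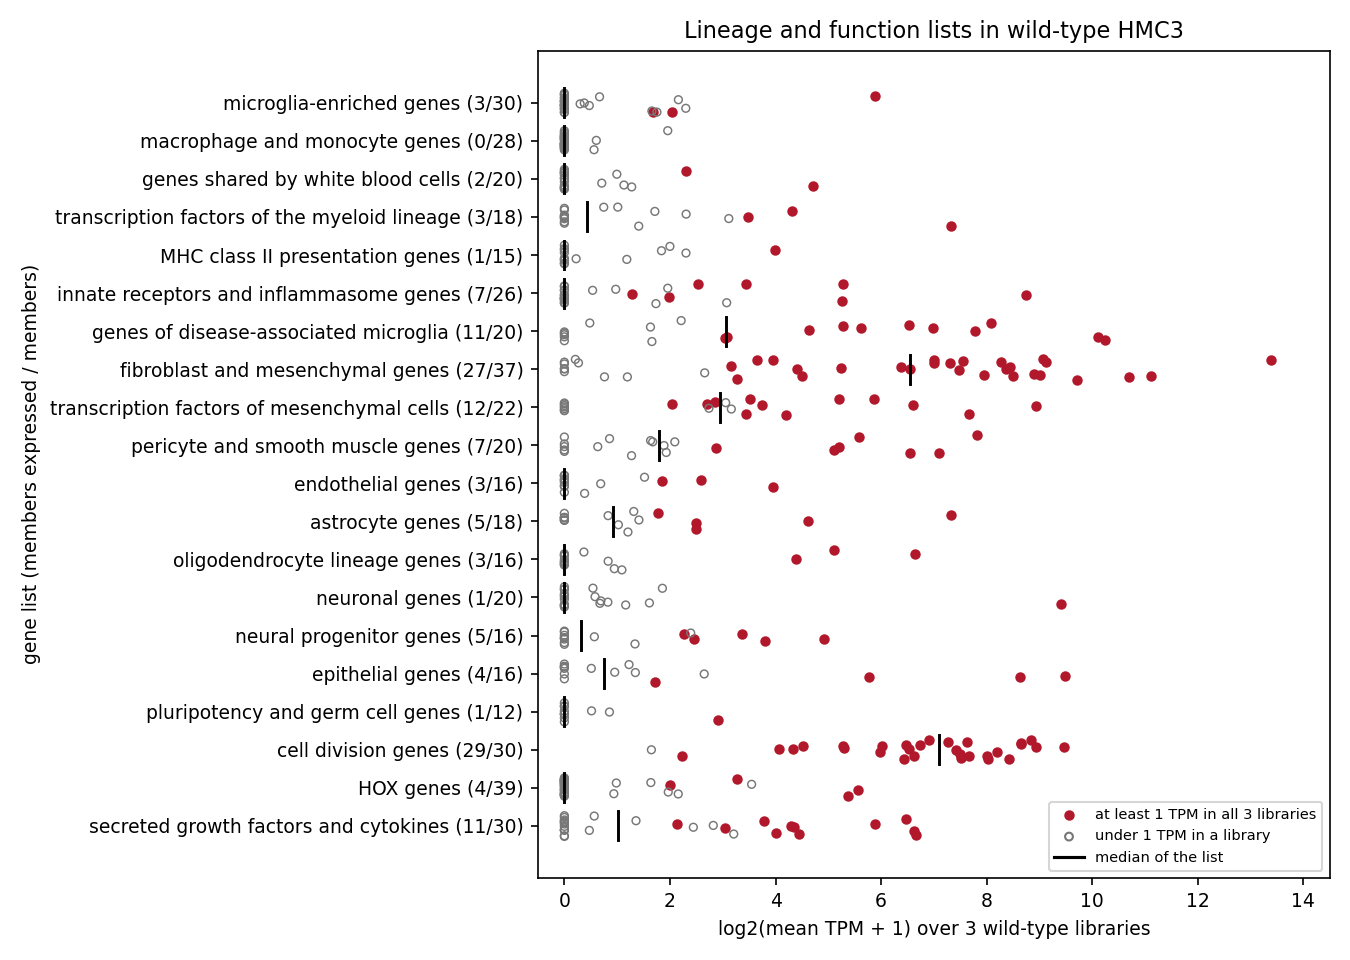
Mean level of each gene of 20 lists over the 3 wild-type libraries as log2(mean TPM + 1), with filled points for expressed genes, open points for genes under 1 TPM in a library and a bar at each list's median. Microglia-enriched and myeloid genes cluster at 0, and mesenchymal and cell division genes lie well to the right.

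Fibroblast and mesenchymal genes made up the best represented lineage list. Of 37, 27 were expressed (73.0%, beside the 50.9% of all protein-coding genes), all 27 with more than 3 reads in every library, and the list's median was 93.0 TPM. Their summed level was 19933, 19273 and 21229 TPM in libraries 1 to 3, and COL1A1 alone gave 10399.7, 9612 and 11995 TPM of these. Below COL1A1 and TPM2 came the matricellular protein CCN1 (1658 ± 73.8 TPM), fibronectin FN1 at 871, 832 and 803 TPM, the partner collagen chain COL1A2 at 545, 511 and 621 TPM, SPARC (514 ± 32.9 TPM), the intermediate filament VIM at 521, 463 and 446 TPM, and the collagen cross-linking enzyme LOXL2 (363 ± 15.2 TPM). COL5A2 stood at 307 ± 3.5996 TPM and COL6A1 at 245 ± 3.84 TPM, and the libraries differed little in either. Not every gene of the list was present. FAP, LUM, POSTN, PDGFRA and CDH11 were listed at 0 in all 3 libraries, and the fibrillar collagen COL3A1 had 2 reads in library 1 and none in the others, where 3 reads equal 3.12, 4.56 and 2.64 TPM. COL3A1 was also at 0 in the authors' deposited poly(A) table. The proteoglycan DCN had 1 read in all.

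Transcription factors of mesenchymal cells were expressed in 12 of 22 cases (54.5%), near the 50.9% of all protein-coding genes, and 7 had more than 3 reads in every library, beside a background of 38.7%. FOXD1, a forkhead factor of kidney stroma and of pericyte precursors (GRCh38 chromosome 5, 73444827 to 73448527, minus strand), led at 464, 467 and 541 TPM from 172, 118 and 237 reads. FOXC2 followed at 180.1, 205 and 222 TPM. In every library both factors lay above TEAD4 (96.3 ± 11.6 TPM) and TEAD1 (56.9 ± 4.70 TPM), which pair with YAP to drive genes such as CCN1 and CCN2. TWIST1 was uneven, at 17.4, 66.2 and 23.6 TPM from 5, 13 and 8 reads. PRRX1, FOXF1, FOXF2 and TBX5 were listed at 0. Of 20 pericyte and smooth muscle genes 7 were expressed (35%, below 50.9%), led by the adhesion molecule MCAM (218, 222 and 236 TPM), the smooth muscle protein SMTN (135 ± 10.6 TPM) and the growth factor receptor PDGFRB (96.3, 103 and 79.7 TPM). The contractile genes ACTA2 and MYH11 were not: ACTA2 had 2, 1 and 0 reads, and MYH11 was listed at 0.

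Lists of other brain and tissue lineages lay below the share of all protein-coding genes, and single genes stood out of them. Of 20 neuronal genes UCHL1, a ubiquitin hydrolase that many cultured lines make, was the 1 expressed, at 664, 658 and 727 TPM, while RBFOX3, MAP2 and SYN1 were listed at 0. There were 3 without library 1 and 2 without library 3. Of 18 astrocyte genes 5 were expressed, with ID3 (160 ± 13.9 TPM) and GJA1, a gap junction protein (23.6 ± 7.94 TPM), the 2 with more than 3 reads in every library, and AQP4 and SLC1A2 were listed at 0. The oligodendrocyte list had 3 of 16, CNP (99.6 ± 11.97 TPM), CSPG4 and CLDN11, with OLIG2, SOX10 and MOG at 0. The endothelial list had 3 of 16, none with more than 3 reads in every library, and CDH5, KDR and CLDN5 were listed at 0. Neural progenitor genes gave 5 of 16, led by NOTCH1 (29.1 ± 4.31 TPM), with NES and SOX2 at 0. Pluripotency and germ cell genes gave 1 of 12, POU5F1, with 1, 3 and 3 reads, and 2 without library 2. POU5F1 has pseudogene copies, so its few reads are uncertain. Of 16 epithelial genes 4 were expressed. The simple keratins KRT18 at 729, 740 and 688 TPM, KRT7 at 396, 382 and 412 TPM and KRT8 at 55.1, 64.0 and 41.8 TPM were all well covered, whereas the epithelial cadherin CDH1 and the keratins KRT5, KRT14 and KRT19 were listed at 0.

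The cells expressed nearly all of the cell division genes. Of 30, 29 were expressed (96.7%, beside 50.9% of all protein-coding genes) and 27 had more than 3 reads in every library (beside 38.7%). The list median was 136 TPM, beside 3.57 TPM. TPX2, a spindle assembly factor, led at 792, 666 and 669 TPM, followed by UBE2C, which feeds the anaphase-promoting complex (486 ± 70.1 TPM), the replicative helicase subunit MCM2 (460 ± 27.2 TPM), the kinase AURKA (403 ± 19.95 TPM) and cyclin D1, CCND1 (399.7 ± 46.5 TPM). MKI67, the common marker of cycling cells, stood at 103, 81.6 and 90.7 TPM. CCNE1, cyclin E1, was the member left out, with 0, 1 and 1 reads.

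HOX genes, which record the position of a cell's origin along the body axis, were expressed from 1 cluster under the rule of 1 TPM in all libraries. Of 39 genes 4 passed (10.3%, beside 50.9% of all protein-coding genes), all from the HOXB cluster on chromosome 17: HOXB2 at 51.5, 35.4 and 51.3 TPM, HOXB6 at 43.5, 15.9 and 62.1 TPM, HOXB3 at 11.4, 9.72 and 4.82 TPM and HOXB4 at 1.89, 5.51 and 1.59 TPM. More than 3 reads in every library were held by 3 of the 39, beside 38.7% of all protein-coding genes, and HOXB4 was not among them. HOXB2 and HOXB6 overlapped in their ranges and were not told apart. HOXB7 had 0, 3 and 3 reads and HOXC8, HOXC9 and HOXD9 a few each, while 29 genes, among them all 11 of the HOXA cluster, were listed at 0 in the 3 libraries. Of all 19686 protein-coding genes, 6730 were listed at 0. By mean TPM 8 HOX genes passed, and without library 1 there were 6. In the pooled poly(A) RNA 2 of the 39 had a mean normalized count of at least 10, beside 8912 of all 19686 protein-coding genes. Neither expressed in total RNA nor at 10 or more there were 34 of the 39, beside 8871 of all 19686. The 2 were therefore not both among the 4 expressed. The HOXB genes overlap one another and antisense transcripts, and without a statement on strand their reads cannot be told apart from those of overlapping genes.

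**Figure D3:**
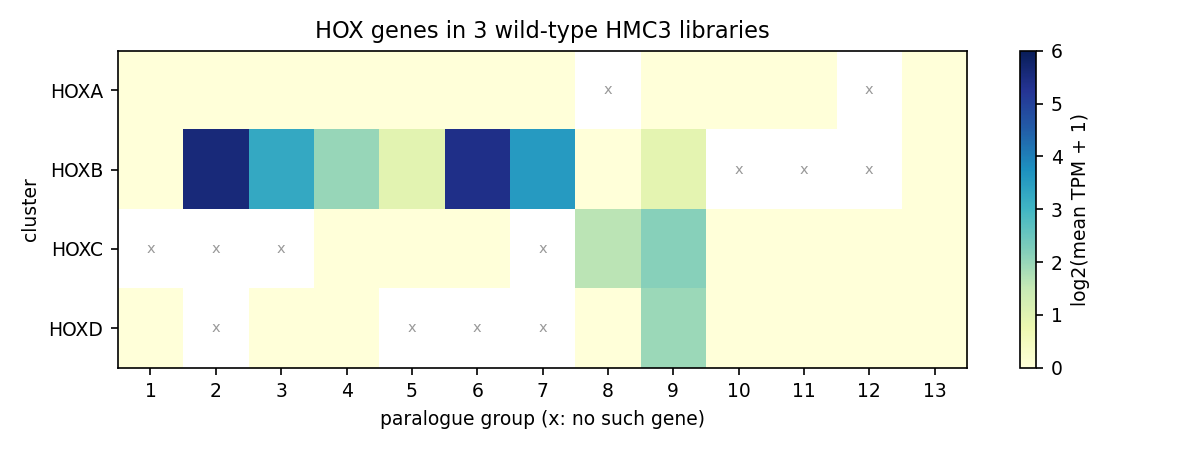
Mean level of the 39 HOX genes over the 3 wild-type libraries as log2(mean TPM + 1), with clusters as rows and paralogue groups as columns. The darkest fields are HOXB2 and HOXB6, and the row of the HOXA cluster is at 0 throughout.

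Of 26 genes of innate sensing 7 were expressed (26.9%, below the 50.9% of all protein-coding genes) and 4 had more than 3 reads in every library, beside 38.7%. IRAK1, a kinase downstream of Toll-like receptors, was high and even at 423, 419 and 438 TPM, and NLRP1, an inflammasome sensor also found in epithelial cells, stood at 37.9 ± 3.43 TPM and the adaptor TICAM1 at 37.5 ± 7.88 TPM. TLR1, TLR2, TLR3, TLR5, TLR7, TLR8, TLR9 and TLR10 were listed at 0, as were AIM2, NLRC4 and CASP1. The list of genes that rise in disease-associated microglia was expressed in 11 of 20 cases (55%), near the 50.9% of all protein-coding genes. Its 5 highest members were the receptor kinase AXL at 1226, 1213 and 1215 TPM, the tetraspanin CD63 (1102 ± 86.5 TPM), ferritin heavy chain FTH1 (271 ± 46.3 TPM), and the lysosomal proteases CTSD (219 ± 42.7 TPM) and CTSB (125 ± 8.76 TPM). TYROBP, ITGAX, CST7, LPL and SPP1 were listed at 0. Secreted growth factors and cytokines were expressed in 11 of 30 cases (36.7%, also below 50.9%), led by LIF (102, 104 and 95.0 TPM), TGFB1 (101, 105 and 86.9 TPM), FGF5 (88.6, 72.5 and 101 TPM) and IGF2 (66.0, 59.3 and 49.8 TPM). The inflammatory cytokines IL1B, IL1A and TNF were listed at 0, and IL6 had 3, 0 and 5 reads. CCL2 and CXCL8, also listed at 0, had mean normalized counts of 30.6 and 14.3 in the authors' deposited poly(A) table.

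The 3 libraries resembled each other. Across the 11304 expressed genes, which are not independent replicates, log2(TPM + 1) had a Pearson correlation of 0.928 between libraries 1 and 2, 0.939 between 1 and 3, and 0.926 between 2 and 3. The median coefficient of variation was 24.8%. A chi-square of recovered reads against library depth gave 1.26, 1.42 and 1.75 per degree of freedom for the same pairs. Sampling noise alone gives 1 for whole reads, and each pair lay above that. Of the values above 0, 91.0% were whole to within 0.02 reads, and the part of the others in the excess was not tested. Of 6541 genes averaging 10 reads or more, 106 (1.62%) differed between the 3 libraries at a Benjamini-Hochberg adjusted p under 0.05 in the chi-square test, which compares these libraries and no condition. The count fell to 31 without library 2 and to 16 without library 3. In simulated reads the test called 87 of 200 genes with a 2-fold change planted in library 2 (43.5%). Genes may therefore differ between the libraries without being called. The 5 largest chi-square values belonged to RN7SL1, COL1A1, SMARCB1, a subunit of the SWI/SNF chromatin remodelling complex, DCBLD2 and MFSD14CP. SMARCB1 stood at 82.8, 41.7 and 21.7 TPM, 3.81 times higher in library 1 than in library 3. COL1A1 differed by no more than 1.25 times, a gap detectable through its many reads. By class, 6 of 16 mitochondrial genes, 6 of 34 genes of 7SL RNA and 3 of 11 nucleolar RNAs passed, beside 83 of 6257 nuclear mRNAs. The test detects smaller differences in genes with more reads, and reads per gene were not matched between classes. These counts therefore do not rank the classes by variability.

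Poly(A) RNA gave another view of the same genes. The authors' deposited table gives for each gene a mean normalized count over all 10 Smart-seq2 libraries, 5 of them METTL3 KO, so it is no wild-type value and carries no SD here. At least 10 was reached there by 8097 of the 9964 expressed nuclear mRNAs (81.3%), by 13 of 49 histone mRNAs, by 130 of 742 long noncoding RNAs and by 0 of 25 small nucleolar RNAs. H4C2, at 16154 ± 498 TPM in total RNA, had 1.66. Several nuclear mRNAs outside the histone genes were likewise high in total RNA and low in poly(A) RNA: FOXD1 had 3.18 in the authors' deposited table, CEBPB 1.19 and TGFB1 2.32, and their transcripts have GC contents of 66.0%, 66.2% and 63.5%. The opposite order was seen for B2M, the light chain of MHC class I, with 23.9 ± 3.23 TPM beside 2209 in the authors' deposited table and a GC content of 40.6%, and for TXN, thioredoxin, with 56.1 ± 15.1 TPM beside 1721. Among genes with a poly(A) count of at least 10, PTMS had the largest ratio of its share in total RNA to its share in poly(A) RNA per kb, 8.13 on the log2 scale, followed by AGRN (7.67), PLEC (7.59) and FASN (7.27), and VTA1 had the smallest, -5.82. High ratios were not confined to GC-rich transcripts: DYRK1A, at 6.87, has a GC content of 42.2%.

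The level in total RNA was higher for transcripts of higher GC content, with a Spearman correlation across 10013 expressed nuclear protein-coding genes of 0.333. Over the 8110 of these with a poly(A) count of at least 10, the correlation of TPM with GC content was 0.461, that of the poly(A) count per kb was -0.078, and TPM and poly(A) count per kb had 0.429. In 10 bins of 811 genes each, the median level in total RNA went from 9.87 TPM at a median GC content of 36.9% to 61.5 TPM at 62.5%, while the median poly(A) count per kb went from 15.3 to 9.04. The median log2 ratio of total to poly(A) share went from -1.24 to 2.03. Genes under a poly(A) count of 10 were left out of this comparison, so the poly(A) values do not cover all expressed genes. Among the 8110 covered, the level rose with GC content in total RNA. The poly(A) count per kb had a weak correlation in the other direction. The part of library preparation in this was not tested. COL1A1, with a GC content of 61.1%, held a mean normalized count of 1092 in the authors' deposited table. FN1, with a GC content of 42.2%, held 7179. These counts are not divided by gene length, and whether GC content bears on either gene was not tested.

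**Figure D4:**
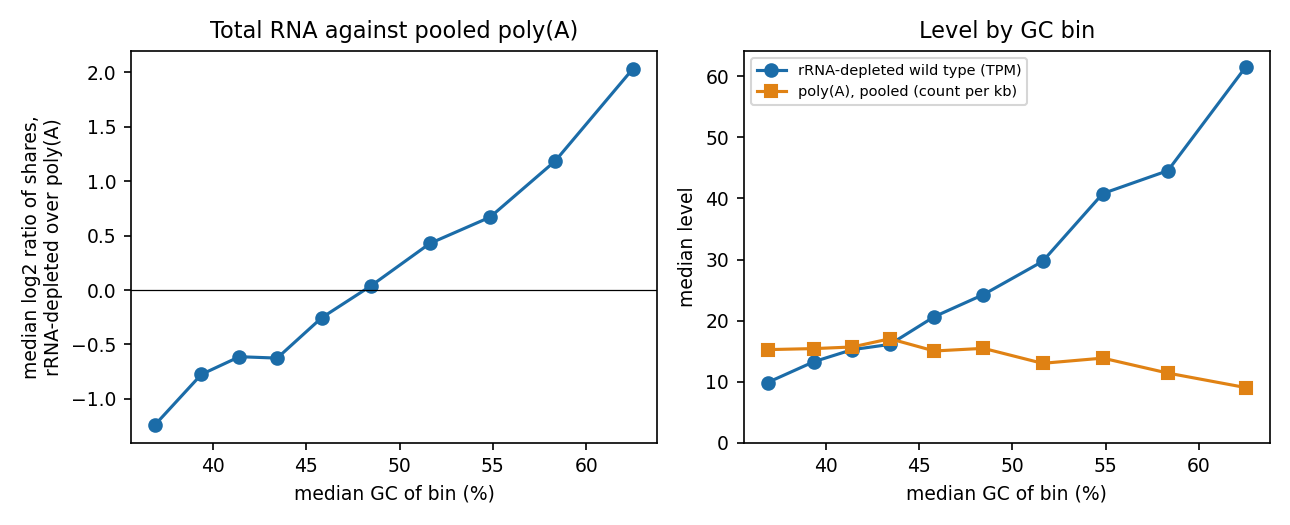
Left, median log2 ratio of each gene's share in wild-type total RNA to its share in pooled poly(A) RNA; right, median level in total RNA (TPM) and poly(A) RNA (count per kb), in 10 bins of 811 genes by GC content in percent. The ratio goes from -1.24 to 2.03 and the total RNA median from 9.87 to 61.5 TPM.

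Promoters of expressed genes were richer in CpG. RefSeq promoter windows on GRCh38.p14, from 250 bases before to 50 bases after the start, were found by symbol for 15189 of 19686 protein-coding genes (77.2%), 1 start per gene. The median observed over expected CpG, the number of CG pairs relative to what the C and G content would give, was 0.857 for 8274 expressed genes and 0.337 for 4754 genes listed at 0 in all 3 libraries. A value of at least 0.6 was held by 87.4% of the first, 31.2% of the second and 66.8% of all 15189. Genes in between, above 0 in some library, had a median of 0.753. All 21 cell division genes with a window reached 0.6, as did 18 of 20 HOX genes, most of which were listed at 0. Of the microglia-enriched genes 7 of 24 did, and of the macrophage and monocyte genes 0 of 20. Mesenchymal genes, mostly expressed, reached it in 11 of 22 cases. COL1A1 and SPI1 were not matched.

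The 250 bases before the RefSeq start are printed for 4 genes, chosen after their values were seen, to show this range: VIM and FOXD1, both expressed, and TYROBP and PTPRC, both listed at 0. For FOXD1 this start lies upstream of the GENCODE gene whose position is given above, so the printed stretch does not adjoin that gene. Capitals mark each CG pair, and the strand is that of the gene. VIM (chr10:17227991-17228240, plus strand) has 8 such pairs and FOXD1 (chr5:73448778-73449027, minus strand) 13, while TYROBP (chr19:35908296-35908545, minus strand) has 5 and PTPRC (chr1:198638790-198639039, plus strand) 1. Over the whole window the observed over expected CpG was 0.584 for VIM, just under 0.6, 0.632 for FOXD1, 0.329 for TYROBP and 0.122 for PTPRC.
VIM: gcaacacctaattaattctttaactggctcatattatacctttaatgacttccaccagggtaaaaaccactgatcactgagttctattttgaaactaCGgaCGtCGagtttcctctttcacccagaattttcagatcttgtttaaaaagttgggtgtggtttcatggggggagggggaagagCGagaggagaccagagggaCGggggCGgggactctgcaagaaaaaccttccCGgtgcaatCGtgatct
FOXD1: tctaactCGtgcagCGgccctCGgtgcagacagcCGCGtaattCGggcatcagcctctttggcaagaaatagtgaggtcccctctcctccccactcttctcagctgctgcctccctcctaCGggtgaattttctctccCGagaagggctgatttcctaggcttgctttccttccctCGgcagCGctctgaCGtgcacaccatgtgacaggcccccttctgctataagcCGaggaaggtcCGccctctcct
TYROBP: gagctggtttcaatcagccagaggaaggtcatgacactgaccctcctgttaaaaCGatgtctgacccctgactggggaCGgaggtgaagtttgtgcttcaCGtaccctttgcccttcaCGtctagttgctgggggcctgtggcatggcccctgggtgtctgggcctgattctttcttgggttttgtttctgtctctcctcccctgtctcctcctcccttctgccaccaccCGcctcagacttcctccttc
PTPRC: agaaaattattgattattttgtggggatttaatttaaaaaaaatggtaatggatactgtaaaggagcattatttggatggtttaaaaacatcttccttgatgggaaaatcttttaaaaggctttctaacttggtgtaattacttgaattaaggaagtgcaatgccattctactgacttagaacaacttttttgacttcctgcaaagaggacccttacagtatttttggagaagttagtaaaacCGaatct

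**Figure D5:**
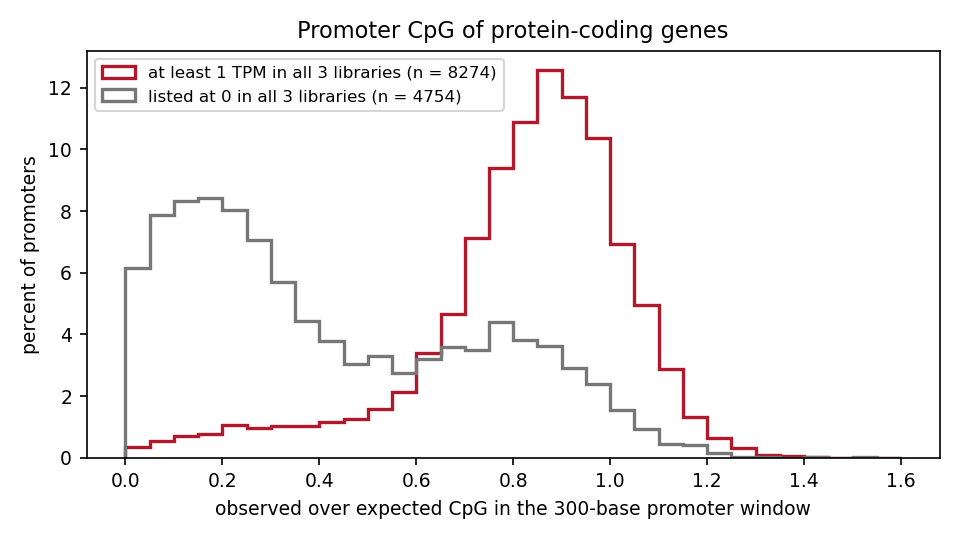
Percent of promoter windows by observed over expected CpG for protein-coding genes expressed in the 3 wild-type libraries (n = 8274) and listed at 0 in all 3 (n = 4754). The medians are 0.857 and 0.337, and the genes listed at 0 also have a smaller peak near 0.8.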

How the data were processed

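HMC3 libraries were prepared from RNA extracted with Trizol and cleaned on Zymo columns, and rRNA was depleted from 100 ng before directional library construction, per the labels' protocols. The submitters' processing notes name Trimmomatic, STAR, DESeq2 and hg38. The annotation and whether counting used strand are not given in the sources used here. The authors deposited TPM per gene and library for the rRNA-depleted libraries. Of the comparison table that the authors deposited for the poly(A) libraries, only the mean normalized count, a signal pooled over both genotypes, was used. From TPM, reads were recovered with exon union lengths of GENCODE 29 (GRCh38), which matched 56927 gene identifiers (93.8%). Of the values above 0, 91.0% were whole to within 0.02 reads, at 266130 to 487243 reads per wild-type library. Gene types and positions came from GENCODE 29, and GC content from the longest transcript.

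A gene was called expressed at 1 TPM or more in all 3 wild-type libraries. The log2 scale used a pseudocount of 1. Reads were compared between libraries with a chi-square test per gene, at a mean of 10 reads, checked on simulated data. Named genes are the 20 protein-coding genes of highest mean TPM and, chosen from longer sets for brevity, some of the 5 highest of each RNA class, the highest members and the defining members listed at 0 of 20 gene lists, the edges of the threshold, and the 5 largest chi-square values. Genes named for their poly(A) level, RMRP and the printed promoters were chosen after their values were seen. The members and lists were chosen with earlier results of these data known. Alternatives changed the threshold, the reads required, the scaling, the pseudocount, the correlation, the minimum reads and depth scaling of the chi-square test and the libraries used. Values of 1 member of the lists are not reported here. The rRNA-depleted knockout libraries were not analysed here, and the poly(A) ones only within the pooled mean. Python 3.11.15, numpy 2.4.6, pandas 2.3.3, scipy 1.17.1 and matplotlib 3.10.9 were used.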

Additional observations from a re-analysis of the deposited data

How the results depend on the processing

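Of 254 alternative values 191 stayed within 1.5 times the count or 1 SD of the value given and 63 moved. A change of direction was not scored. Class shares without 1 library had to stay, because leaving out 1 of 3 values cannot move a mean by 1 SD. Expressed genes numbered 11519 at 0.5 TPM, 10590.0 at 2 TPM, 15976 by the mean and 8018 at more than 3 reads. They numbered 10186 with TPM rescaled over protein-coding genes (these alone), and 11817 to 12457 without 1 library. The lowest library held 3 reads or fewer for 3238 of the 11256 expressed genes with a length. By mean TPM the expressed members were 7 of the microglia-enriched genes, 1 of the macrophage and monocyte genes, 4 of those shared by white blood cells, 8 of the myeloid factors, 5 of MHC class II, 13 of the pericyte, 9 of the astrocyte, 4 of the neuronal, 7 of the epithelial and 8 of the HOX genes. At more than 3 reads in every library they were 1 of the microglia-enriched, 1 of the white blood cell, 4 of the innate, 7 of the mesenchymal factor, 0 of the endothelial, 2 of the astrocyte, 3 of the neural progenitor and 0 of the pluripotency genes. At 2 TPM they were 4 of the innate and 1 of the endothelial genes. Without 1 library in turn they ranged from 3 to 5 for microglia-enriched genes, 0 to 1 for macrophage and monocyte genes, 3 to 7 for myeloid factors, 1 to 2 for MHC class II, 1 to 3 for neuronal and 1 to 2 for pluripotency genes. The list of cell division genes gave 27 to 30 and the mesenchymal list 27 to 29 under every alternative run.

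As shares of recovered reads the classes gave 92.7% for nuclear mRNA, 2.37% for long noncoding RNA, 1.27% for the mitochondrial genome, 1.15% for 7SL, 1.06% for histone mRNA, 0.478% for pseudogenes, 0.448% for 7SK, 0.336% for nucleolar, 0.0935% for spliceosomal, 0.0275% for other small RNA, 0.0264% for hairpins and 0.000412% for the rest. Among genes of at least 200 bases the shares of TPM were 65.3% for nuclear mRNA, 12.8% for 7SL, 5.10% for histone mRNA, 4.49% for 7SK, 4.12% for long noncoding RNA, 2.84% for nucleolar RNA, 1.13% for pseudogenes, 0.256% for other small RNA, 0.00212% for the rest, 0.00128% for spliceosomal RNA and 0% for hairpins. Among expressed genes they were 58.0% for nuclear mRNA, 4.57% for histone mRNA, 2.81% for long noncoding RNA, 0.641% for pseudogenes, 0.489% for hairpins and 0.181% for other small RNA. The mean correlation of library pairs was 0.923 with a pseudocount of 0.1, 0.901 over all genes and 0.918 by rank, beside 0.931. Genes that differ between libraries numbered 16 to 102 without 1 library. At a poly(A) count of at least 50, 4995 expressed nuclear mRNAs passed, beside 8097. The difference in median promoter CpG was 0.393 against all other protein-coding genes, beside 0.520 against those listed at 0. The cause of these moves was not tested. No paired analysis was possible because the libraries form 1 group and no groups were compared.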

Other observations

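Among protein-coding genes, 70 were listed at 0 in all 3 wild-type libraries yet had a mean normalized count of at least 10 in the authors' deposited poly(A) table, and 58 of these had a promoter window, with a median observed over expected CpG of 0.797. That value lies nearer to the 0.857 of the expressed genes than to the 0.333 of the 4696 windows of genes listed at 0 that were also under 10 in poly(A) RNA. In the other direction, 1474 windows belonged to genes expressed in total RNA with a poly(A) count under 10, and their median was 0.833. These values are given as a description, and the 2 library types differ in depth and in the genotypes they pool.

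Genes outside the lineage lists were also high in total RNA and low in the authors' deposited poly(A) table. ALYREF, an mRNA export factor, stood at 909 ± 53.8 TPM (SD, n = 3) with a poly(A) count of 8.91, CENPB, a centromere binding protein, at 487 ± 72.0 TPM with 8.70, and KISS1, which encodes kisspeptin, at 528 ± 67.6 TPM with 5.58. Their transcripts have GC contents of 57.5%, 66.2% and 65.9%. JUN, a subunit of the AP-1 transcription factor, stood at 524 ± 7.18 TPM with a poly(A) count of 13.6. These genes were chosen after their values were seen.

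By chromosome, the share of protein-coding genes that were expressed ran from 37.9% on chromosome X (316 of 834) to 57.6% on chromosome 22 (249 of 432), beside 50.9% over all, among chromosomes with at least 100 such genes.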
